A study of Mus musculus with 6 samples.

Results

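The clustered protocadherins are adhesion genes that lie side by side on mouse chromosome 18 in an alpha, a beta and a gamma cluster, and their RNA was examined in cultured aortic vascular smooth muscle cells (VSMCs) with and without the lysine methyltransferase SMYD2. Members were taken by name, as every gene symbol made of Pcdha, Pcdhac, Pcdhb, Pcdhga, Pcdhgb or Pcdhgc and a number. This gave 53 of the 18112 genes in the deposited table, namely 10 alpha, 21 beta and 22 gamma members, the last being 12 of type A, 7 of type B and 3 of type C. The cells came from the aortic media of C57BL/6 mice aged 8 to 10 weeks. The 3 control samples, labelled Flox, were Smyd2 fl/fl, with exon 2 of *Smyd2* between loxP sites and no Cre. The 3 knockout samples, Smyd2 SMC-/-, carried the same floxed alleles and Cre recombinase under the *Tagln* (SM22α) promoter, which the study names as active in some other cell types too, such as cardiomyocytes and myeloid cells. RNA sequencing addressed which genes differ between the genotypes. The study's methods describe starved cells at passage 4, whereas the labels describe passage 6 in medium with 10% serum.

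A clustered protocadherin is a transmembrane protein of the cadherin superfamily that binds the same isoform on a neighbouring cell. In the alpha and gamma clusters each member has its own promoter and its own large variable exon, which codes for the extracellular and transmembrane parts and is spliced to constant exons that the whole cluster shares, while a beta member is a gene of its own without a constant exon. The family is best known from neurons, where each cell switches on its own small set of alternate promoters under the control of DNA methylation, CTCF and cohesin, and where the C-type members are switched on more uniformly.

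Values are given as FPKM, the fragments of a gene scaled by transcript length and library size, always in the order of replicates 1, 2 and 3. FPKM is not a count. Depth was therefore estimated from the steps between low values, at 17400000 to 20100000 fragments per library. There 65.7% to 69.9% of low values lay within 0.15 of a whole fragment, where chance at a fixed depth would give 30%. Each depth was chosen to make this share largest, so the share is no separate test of it. At that depth 1 fragment of *Pcdhgb4* was worth 0.0108 to 0.0125 FPKM. *Smyd2* itself stood at 7.87, 3.10 and 3.0 FPKM in the control libraries and at 1.67, 0.40 and 0.80 FPKM in the knockout libraries, so that the groups did not overlap, although limma's adjusted p was 0.105 and fell to 0.0189 with the replicate number as a block. Replicate 1 stood apart from replicates 2 and 3 in both genotypes. Spearman's rho across genes was 0.992 between control replicates 2 and 3 against 0.930 and 0.934 with replicate 1, and the knockout values were 0.989 against 0.920 and 0.925. The labels do not say that replicates came from separate mice, so p-values here measure the spread between these samples, which may be technical. Among the 9 smooth muscle markers, *Acta2*, the smooth muscle actin, was the most abundant, but *Myh11*, the smooth muscle myosin heavy chain, reached at most 0.22 FPKM, *Des* (desmin) at most 0.22 FPKM and *Myocd* (myocardin) at most 0.48 FPKM in any library.

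With limma on log2(FPKM + 1), 28 of the 53 members reached the required mean of 0.5 FPKM, and 6 of them rose (*Pcdhgb4*, *Pcdhga3*, *Pcdhga5*, *Pcdhb14*, *Pcdhga10* and *Pcdhga2*) and 1 fell (*Pcdhgb2*) at an adjusted p under 0.05. Over all 12565 genes tested, 1.23% rose and 1.21% fell. At an unadjusted p under 0.05 in limma 10 members were higher and 2 lower, where 9.16% and 11.2% of all tested genes were. Some members reached that mean only through the knockout libraries, so all 53 were also tested with no filter, and again 6 were higher and 1 was lower, where 0.767% and 0.596% of the 18112 genes were. With the replicate block 7 members were higher and 1 lower, against 4.72% and 5.72% of all tested genes, the added member being *Pcdhb18*. With TPM, which rescales each library and also makes the pseudocount smaller beside the values, the median of the tested genes was 0.11 higher in log2 units. The calls among all genes were 247 higher and 99 lower (1.97% and 0.788%), against 154 and 152, and the parts of the rescaling and of the pseudocount in this were not told apart. The family still had 6 higher and 1 lower call with TPM. Leaving out single libraries mattered more. The number of called members fell from 7 to 3 without Smyd2 fl/fl replicate 2, to 3 without Smyd2 fl/fl replicate 3, to 6 without Smyd2 SMC-/- replicate 2 and to 4 without Smyd2 SMC-/- replicate 3, while it was 10 without Smyd2 SMC-/- replicate 1 and stayed at 7 without Smyd2 fl/fl replicate 1. In the same order the calls among all genes went from 306 to 34, 36, 55, 39, 682 and 278, so the whole table shifted as well.

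**Figure D1:**
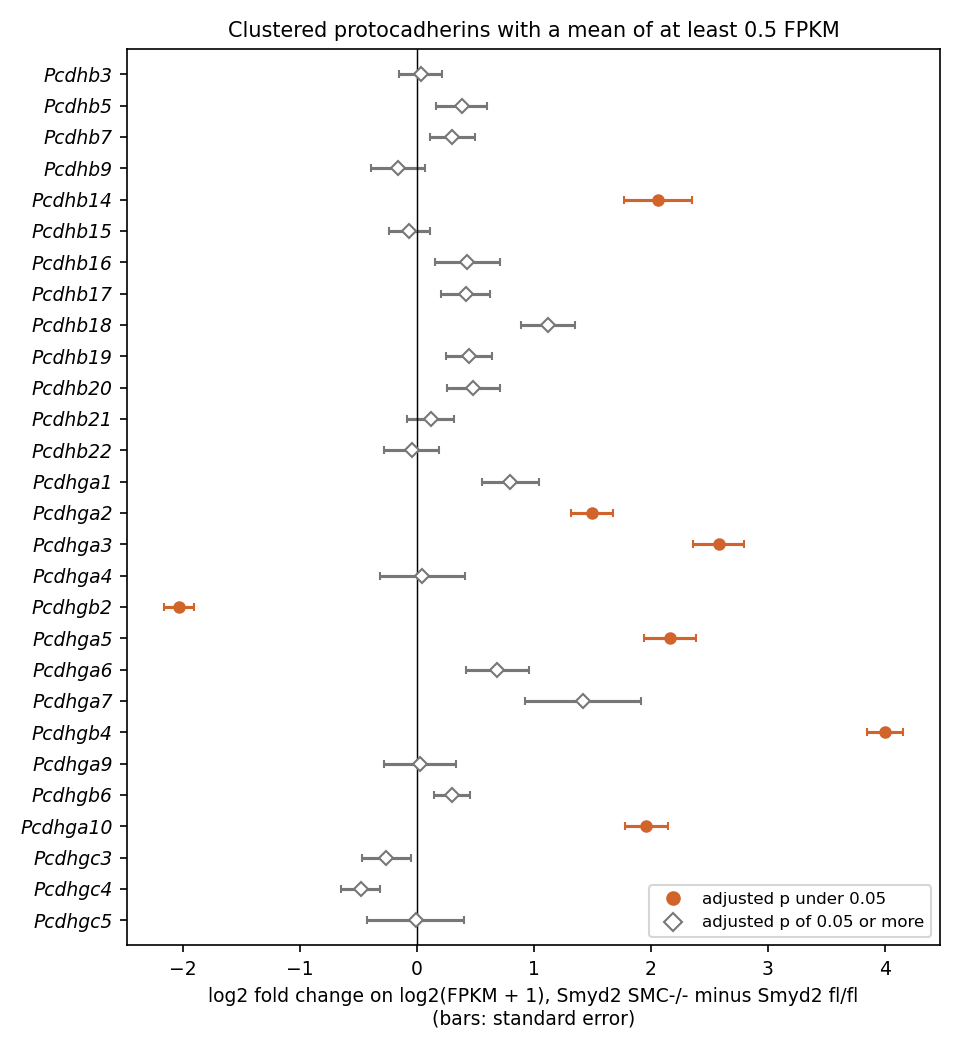
Log2 fold change of each of the 28 tested members on the log2(FPKM + 1) scale, Smyd2 SMC-/- minus Smyd2 fl/fl, with bars for the standard error from limma and members in genomic order from top to bottom. Filled circles mark an adjusted p under 0.05, and these 7 members run from -2.03 for Pcdhgb2 to 4.0 for Pcdhgb4.

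All 3 knockout libraries lay above all 3 control libraries for 21 of the 53 members and below them for 2, where 10.9% and 12.0% of all genes did. Of the 21, 14 were among the 22 gamma members, 6 among the 21 beta members and 1 among the 10 alpha members. With TPM these numbers were 23 and 2, against 15.4% and 8.23% of all genes. The group mean was higher in the knockout for 42 members and lower for 11, where 48.2% of all genes had a higher mean. Under TPM, which moved the median of the tested genes up by 0.11 in log2 units, it was higher for 45. *Pcdhb4*, *Pcdhb22* and *Pcdhga9* changed sides there. No share over all genes under TPM is given for this count. The median log2 fold change without a filter was 0.48 over the gamma members and 0.12 over the beta members, and -0.0048 over all genes, while alpha values are too small beside the pseudocount of 1 for such a median. In RNA from a whole culture, fewer cells that express a member and less of its RNA in each cell cannot be told apart.

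The gamma cluster spans positions 37661793 to 37841873 of chromosome 18 (GRCm38), and every member listed here has 4 exons, of which the last 3 are the constant exons. Between 13.4% and 45.5% of a gamma transcript is shared with other members, so a read from a constant exon belongs to no member in particular and the authors' counting with RSEM could divide it among them. How far this affects each gamma value was not measured. Summed over the 22 members, the cluster had 188, 289 and 284 FPKM in the controls and 232, 260.4 and 305 FPKM in the knockouts. These ranges overlapped. The mean sum was 254 ± 56.9 FPKM in Smyd2 fl/fl and 266 ± 36.5 FPKM in Smyd2 SMC-/- (SD, n = 3 each), and the difference of 12.2 FPKM was 35.8 FPKM when every library was rescaled to the mean total of 411363 FPKM, and turned to -20.7 FPKM without Smyd2 fl/fl replicate 1 and to -7.29 FPKM without Smyd2 SMC-/- replicate 3.

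*Pcdhgc3* (NCBI Gene 93706, chromosome 18 from 37806410 to 37841873), a C-type member that is also known from tissues outside the nervous system, was by far the most abundant clustered protocadherin in every library. It had 137, 220.4 and 214 FPKM in the controls and 147, 148 and 173 FPKM in the knockouts. The groups overlapped, because control replicate 1 was the lowest of all libraries. The log2 fold change was -0.26 (adjusted p = 0.556 in limma, with a standard error of 0.208), and in replicates 2 and 3 alone, an alternative chosen after seeing the data, it was -0.44 with an adjusted p of 0.0321. The value was -0.48 without Smyd2 fl/fl replicate 1, -0.14 without Smyd2 fl/fl replicate 2, -0.16 without Smyd2 fl/fl replicate 3 and -0.14 with TPM, none of which passed. In replicates 2 and 3 alone 17.3% of all tested genes were called lower. The other C-type members passed in 0 of the 12 alternatives. *Pcdhgc5* (NCBI Gene 93708) had 10.5, 19.6 and 20.3 FPKM in the controls and 8.52, 23.3 and 20.5 FPKM in the knockouts. Its level followed the replicate number, with both replicate 1 libraries low, and its log2 fold change was -0.0070 (adjusted p = 0.996 in limma, with a standard error of 0.415). *Pcdhgc4* (NCBI Gene 93707) had 1.70, 1.32 and 1.71 FPKM in the controls against 0.85, 0.69 and 1.00 FPKM in the knockouts. Every knockout library was below every control library, but the log2 fold change of -0.48 did not pass the test (limma's adjusted p 0.186, with a standard error of 0.169, and 0.0917 under the block). Thus 0 of the 3 C-type members passed in limma, and 1 had an unadjusted p under 0.05.

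**Figure D2:**
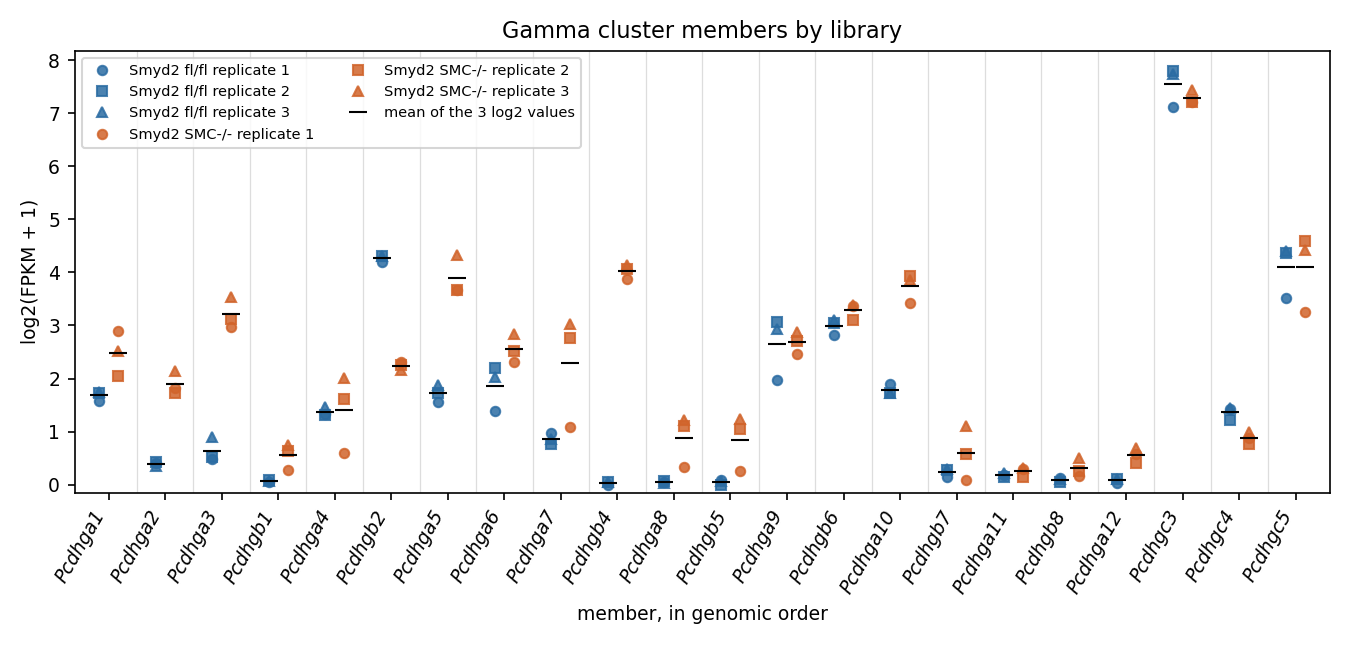
Level of the 22 gamma members in each library as log2(FPKM + 1), in genomic order, with blue points for the 3 Smyd2 fl/fl libraries, orange points for the 3 Smyd2 SMC-/- libraries, marker shapes for the replicates and black bars for group means. Pcdhgb2 is the only type A or B member with all orange points below all blue ones, at 3.48 to 3.97 FPKM against 17.4 to 18.9 FPKM, and Pcdhgb4 goes from at most 0.03 FPKM to at least 13.7 FPKM.

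*Pcdhgb2* (NCBI Gene 93700, from 37689828), an alternate member of type B, was the leading gamma A or B isoform of control cells and fell in the knockout. Its level was 17.4, 18.8 and 18.9 FPKM in the controls and 3.97, 3.76 and 3.48 FPKM in the knockouts. The libraries of each genotype lay close together, and the groups were far apart. The mean was 18.4 ± 0.847 FPKM against 3.74 ± 0.246 FPKM (SD, n = 3 each), a mean 4.91 times as high in the controls. In limma the log2 fold change was -2.03 (adjusted p = 0.00185, with a standard error of 0.126), and the adjusted p ran from 2.4e-05 to 0.0267 over the 12 alternatives, so the call held in each of them.

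*Pcdhgb4* (NCBI Gene 93701, from 37720369), also of type B, went the other way. At an estimated 0, 3 and 3 fragments it was next to silent in the controls, and the knockout libraries held an estimated 1092, 1399 and 1475 fragments, or 13.7, 15.7 and 16.7 FPKM. It thereby became the leading gamma A or B isoform in knockout replicates 1 and 2. Its log2 fold change kept within 3.94 and 4.08 when any library was left out, but its size depends on the scale, as it was 7.02 with a pseudocount of 0.1 and 5.25 with TPM. Limma's adjusted p was 0.00584 or less over all 12 alternatives. No ratio is given, since the controls are near the level of a few fragments.

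Among the type A members, which are alternate isoforms like type B, 4 of the 9 tested rose and 0 fell in limma, where 1.23% and 1.21% of all tested genes did. At an unadjusted p under 0.05 in limma 7 were higher and 0 lower, where 9.16% and 11.2% of all tested genes were. The filter itself depends on the knockouts, as *Pcdhga2* had group means of 0.317 and 2.75 FPKM. With no filter 4 of all 12 type A members were higher and 0 lower, where 0.767% and 0.596% of the 18112 genes were. *Pcdhga3* (NCBI Gene 93711, from 37674307) had 0.40, 0.43 and 0.86 FPKM in the controls and 6.83, 7.71 and 10.7 FPKM in the knockouts. The lowest knockout library was several times the highest control. Its log2 fold change was 2.58 (adjusted p = 0.00535 in limma, with a standard error of 0.220), and the adjusted p stayed between 0.00012 and 0.0442 over the alternatives. *Pcdhga5* (NCBI Gene 93713, from 37694380) had 1.96, 2.32 and 2.66 FPKM against 11.7, 11.7 and 19.2 FPKM. The knockout mean was 6.13 times the control mean, with knockout replicate 3 above the other knockouts. The log2 fold change was 2.16 (adjusted p = 0.00964 in limma, with a standard error of 0.225). Its adjusted p ranged from 0.000816 to 0.0644 and was above 0.05 without Smyd2 fl/fl replicate 2 (0.0644) and without Smyd2 fl/fl replicate 3 (0.0575).

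*Pcdhga10* (NCBI Gene 93722, from 37746993) had 2.73, 2.32 and 2.29 FPKM in the controls and 9.70, 14.4 and 13.6 FPKM in the knockouts. Knockout replicate 1 was the lowest of its group, still well above the controls, and the mean was 5.13 times as high. In limma its log2 fold change was 1.96 (adjusted p = 0.00719, with a standard error of 0.184), and its adjusted p ranged from 2.7e-05 to 0.0562. It was above 0.05 without Smyd2 fl/fl replicate 2 (0.0541), without Smyd2 fl/fl replicate 3 (0.0562) and without Smyd2 SMC-/- replicate 3 (0.0549). *Pcdhga2* (NCBI Gene 93710, from 37668953) had 0.32, 0.35 and 0.28 FPKM against 2.54, 2.29 and 3.43 FPKM. Its controls were alike, and its mean was 8.69 times as high in the knockout. The log2 fold change of 1.5 came with limma's adjusted p of 0.0150 and a standard error of 0.181. Across the 12 alternatives limma gave it adjusted p-values of 0.000992 to 0.0996, which were above 0.05 without Smyd2 fl/fl replicate 2 (0.0903), Smyd2 fl/fl replicate 3 (0.0996), Smyd2 SMC-/- replicate 2 (0.0663) or Smyd2 SMC-/- replicate 3 (0.0827).

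The RNA of types A and B together was therefore both more abundant and spread over more members in the knockout. Their summed level was 38.3, 47.4 and 47.9 FPKM in the controls and 75.8, 88.2 and 109.7 FPKM in the knockouts, without overlap. Most of the difference lay in type A, whose sum was 14.6, 21.1 and 21 FPKM in the controls and 48.3, 58.9 and 76.4 FPKM in the knockouts, whereas the sum of type B went only from 23.7, 26.4 and 26.9 FPKM to 27.5, 29.4 and 33.3 FPKM. *Pcdhgb2* made up 45.4%, 39.7% and 39.4% of the summed A and B level in the controls and 5.24%, 4.26% and 3.17% in the knockouts. The share of *Pcdhgb4* was at most 0.063% in a control library and 18.0%, 17.8% and 15.3% in the knockouts. The effective number of members, which is the exponential of the Shannon entropy of these shares and equals the number of members when all shares are alike, was 6.4, 6.70 and 6.98 in the controls and 10.5, 11.6 and 12.1 in the knockouts. Its mean was 6.69 ± 0.291 against 11.4 ± 0.857 (SD, n = 3 each). The members at 0.1 FPKM or more numbered 13 of 19 in each control library and 18, 19 and 19 in the knockouts. These are descriptions without a test, and the division of constant-exon reads affects each share.

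**Figure D3:**
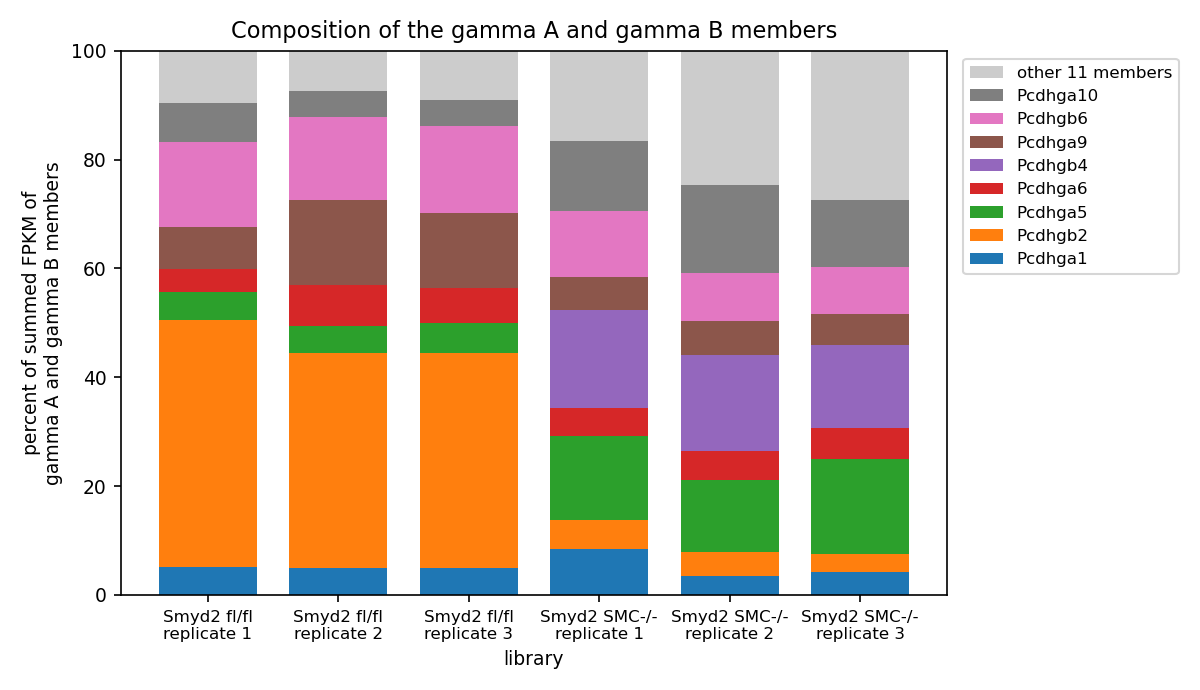
Share of each member in the summed FPKM of the 19 gamma A and gamma B members, in percent, with a stacked bar for each library, the 8 members with the highest mean share in colours of their own and the other 11 in light grey. Pcdhgb2 fills 39.4% to 45.4% of a Smyd2 fl/fl bar and 3.17% to 5.24% of a Smyd2 SMC-/- bar, where Pcdhgb4 takes 15.3% to 18.0%.

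Several alternate members separated the knockout replicates from each other. *Pcdhga7* had 0.96, 0.70 and 0.82 FPKM in the controls and 1.11, 5.78 and 7.14 FPKM in the knockouts. Knockout replicate 1 was near the controls, and only replicates 2 and 3 stood out. Its log2 fold change of 1.42 did not pass (adjusted p = 0.184 in limma, with a standard error of 0.499). In replicates 2 and 3 alone the log2 fold change was 2.08. That setting leaves out the library that set this member apart, so a p-value from it would be no support. *Pcdhga8*, with at most 0.05 FPKM in a control, had 0.26, 1.14 and 1.34 FPKM in the knockouts, and *Pcdhgb5*, with at most 0.06 FPKM in a control, had 0.19, 1.06 and 1.35 FPKM. Both showed the same order, with knockout replicate 1 lowest. *Pcdhga4* had 1.51, 1.47 and 1.75 FPKM in the controls and 0.51, 2.08 and 3.04 FPKM in the knockouts, so that knockout replicate 1 was below and the other knockouts above all controls. These 4 members were singled out after their values were seen. In replicates 2 and 3 alone 11 members were higher and 2 lower, but so many genes passed there (12.1% higher and 17.3% lower of all tested) that the lower count is no result about the family.

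The remaining tested A and B members gave no call with all 6 libraries. *Pcdhgb6* (NCBI Gene 93703), the alternate isoform of highest mean level in controls after *Pcdhgb2*, had 6.03, 7.22 and 7.57 FPKM against 9.27, 7.63 and 9.45 FPKM. The groups just failed to overlap, and its log2 fold change of 0.30 did not pass (adjusted p = 0.331 in limma, with a standard error of 0.153). *Pcdhga9* had 2.93, 7.37 and 6.62 FPKM against 4.53, 5.55 and 6.31 FPKM, with the widest spread among the controls, and its log2 fold change was 0.026 (adjusted p = 0.974 in limma). *Pcdhga1* had 1.99, 2.32 and 2.36 FPKM against 6.46, 3.13 and 4.72 FPKM, where the knockouts were all higher but far from each other (log2 fold change 0.80, adjusted p = 0.136 in limma). *Pcdhga6* had 1.60, 3.57 and 3.09 FPKM against 3.97, 4.70 and 6.19 FPKM, also without overlap (log2 fold change 0.69, adjusted p = 0.217 in limma), and it passed in replicates 2 and 3 alone (0.0298). In that last setting 12.1% of all tested genes were called higher. The 7 gamma members under the filter reached at most 1.35 FPKM in any library. *Pcdhgb1*, among them, had 0.03, 0.06 and 0.05 FPKM against 0.21, 0.55 and 0.68 FPKM, and *Pcdhga12* had 0.02, 0.08 and 0.08 FPKM against 0.49, 0.32 and 0.62 FPKM, both without overlap.

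In genomic order the called gamma members were interspersed with members that were not called. *Pcdhga2* and *Pcdhga3* are neighbours near the start of the cluster, *Pcdhgb2* and *Pcdhga5* are neighbours that moved in opposite directions, *Pcdhgb4* comes 3 places after *Pcdhga5*, and *Pcdhga10* is the last called member. *Pcdhga4* lies between *Pcdhgb1* and *Pcdhgb2*, and *Pcdhga6* and *Pcdhga7* lie between *Pcdhga5* and *Pcdhgb4*. The 4 type A and B members that follow *Pcdhga10* reached at most 1.14 FPKM in any library.

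Beta members are genes of 1 exon that share no annotated position with another member, apart from *Pcdhb21* and *Pcdhb22*, which overlap each other over 9.67% and 6.89% of their length. Sequence similarity between beta members was not examined. The cluster (positions 37294812 to 37524479) had 20.2, 32.5 and 30.3 FPKM in the controls and 50.2, 31.3 and 48.4 FPKM in the knockouts, summed over 21 members. On this scale knockout replicate 2 was at the level of the controls, and the ranges overlapped. As a part of each library's total FPKM the sums did not overlap. They were 0.00487%, 0.00719% and 0.00717% in the controls and 0.0128%, 0.00781% and 0.0125% in the knockouts. The mean sum was 27.6 ± 6.55 FPKM in Smyd2 fl/fl and 43.3 ± 10.5 FPKM in Smyd2 SMC-/- (SD, n = 3 each). The effective number of members overlapped too, at 9.34, 10.9 and 10.8 in the controls and 10.1, 10.8 and 11.2 in the knockouts.

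*Pcdhb14* (NCBI Gene 93885, chromosome 18 from 37447656 to 37456350) was the only beta member that rose in the test without a block. It had 0.21, 0.61 and 0.76 FPKM in the controls, or about 33, 106 and 129 fragments, and 7.28, 3.35 and 5.90 FPKM in the knockouts, or about 1092, 562 and 976 fragments. The knockouts were all higher than the controls, with replicate 2 the lowest, and their mean was 10.5 times as high. The log2 fold change was 2.06 (adjusted p = 0.0235 in limma, with a standard error of 0.288). Over the alternatives the adjusted p ranged from 0.00174 to 0.126, and it exceeded 0.05 without Smyd2 fl/fl replicate 2 (0.109), without Smyd2 fl/fl replicate 3 (0.0998) and without Smyd2 SMC-/- replicate 3 (0.126). With the block and no filter together it was 0.0599.

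*Pcdhb18* (NCBI Gene 93889, from 37489465) had 0.64, 1.44 and 1.37 FPKM in the controls and 3.49, 3.0 and 4.44 FPKM in the knockouts. The groups did not overlap, and the mean was 3.17 times as high in the knockout. Its log2 fold change of 1.12 had an adjusted p of 0.0599 in limma (standard error 0.227) and passed with the replicate block (adjusted p = 0.0353, with a standard error of 0.192), while all alternatives together spanned 0.00695 to 0.237. With the block and no filter together the adjusted p from limma was 0.0721. The most abundant beta member, *Pcdhb17* (NCBI Gene 93888), had 7.63, 10.3 and 9.59 FPKM against 15.4, 9.44 and 13.4 FPKM. Knockout replicate 2 fell among the controls (log2 fold change 0.42, adjusted p = 0.322 in limma). With TPM the groups of *Pcdhb17* did not overlap, and the adjusted p was 0.223 in limma. *Pcdhb16* (NCBI Gene 93887) had 2.27, 4.12 and 4.5 FPKM against 6.58, 3.66 and 5.40 FPKM, again with an overlap through knockout replicate 2 (log2 fold change 0.43, adjusted p = 0.448 in limma). *Pcdhb22* had 2.12, 3.80 and 3.14 FPKM against 2.87, 2.17 and 3.63 FPKM, and its groups overlapped throughout. *Pcdhb9* had the largest negative log2 fold change among the tested beta members, -0.16, with an adjusted p of 0.758 in limma. Of the 8 beta members under the filter, *Pcdhb13* was the 1 without overlap, at 0.04, 0.04 and 0.07 FPKM against 0.16, 0.13 and 0.13 FPKM.

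**Figure D4:**
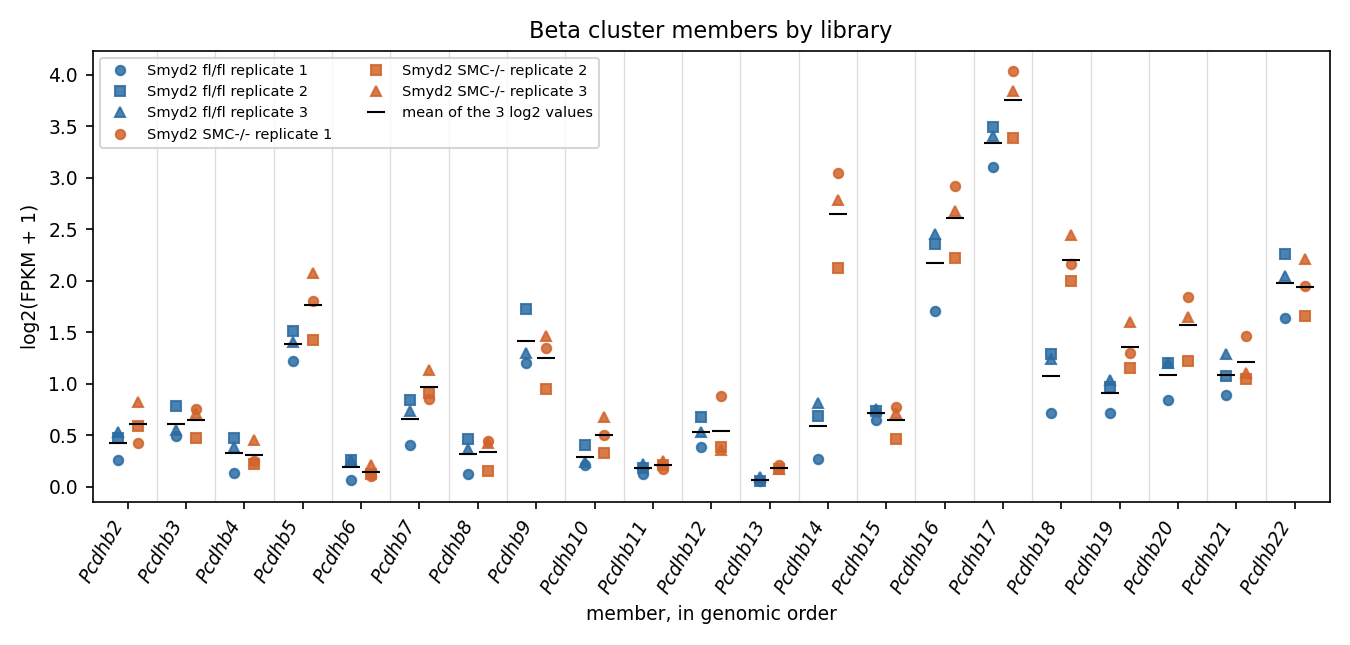
Level of the 21 beta members in each library as log2(FPKM + 1), in genomic order, with blue points for Smyd2 fl/fl, orange points for Smyd2 SMC-/-, marker shapes for the replicates and black bars for group means. Pcdhb14 has the widest gap between the groups, from 0.21 to 0.76 FPKM against 3.35 to 7.28 FPKM, and in Pcdhb17, the member of highest level, the orange square of replicate 2 lies among the blue points.

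The alpha cluster (positions 36939205 to 37187657) was close to silent. Its 10 listed members, of which 48.6% to 54.9% is shared sequence, reached at most 0.17 FPKM, or about 17 fragments, in any library, and 0 of them could be tested at a mean of 0.5 FPKM. With no filter 0 passed in limma and 1 was higher at an unadjusted p under 0.05, where 7.85% of all genes were. The summed level was 0.09, 0.12 and 0.12 FPKM in the controls and 0.46, 0.38 and 0.42 FPKM in the knockouts. The groups were apart, but at a level of a few fragments per member. *Pcdha5* had 0.02 FPKM in control replicate 1, was listed at 0 in the other controls, and had 0.13, 0.08 and 0.17 FPKM in the knockouts, about 12, 8 and 17 fragments. *Pcdha12* had 0.05 FPKM, 0 and 0.12 FPKM against 0.03 FPKM, 0.04 FPKM and 0, and *Pcdha3* was above 0 in 1 control and 2 knockout libraries. *Pcdhac2*, the alpha C-type member in the table, was listed at 0 in every library except knockout replicate 2, at 0.07 FPKM.

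Of 19 genes that flank the clusters 17 were tested, and 0 were higher or lower in limma, where 1.23% and 1.21% of all tested genes were. At an unadjusted p under 0.05 in limma 0 were higher and 1 lower, against 9.16% and 11.2%. Without a test, 2 of the 19 had all knockout libraries above all controls and 3 had them below, which is near the 10.9% and 12.0% of all genes. *Arap3*, a GTPase-activating protein gene under the filter and singled out after its values were seen, was among the 3, at 0.61, 0.52 and 0.51 FPKM against 0.02, 0.02 and 0.03 FPKM. Their median log2 fold change was -0.0039, against -0.018 over all tested genes. The most abundant, *Ik*, a splicing factor gene, had 95.7, 83.0 and 78.6 FPKM against 89.9, 79.4 and 88.3 FPKM, with overlapping groups. *Wdr55* passed with the replicate block, at a log2 fold change of -0.50 (adjusted p = 0.0437 in limma, 0.143 without the block, 0.0242 in replicates 2 and 3 alone). In that last setting 17.3% of all tested genes were called lower. *Taf7* and *Slc25a2*, which lie between the beta and gamma clusters, reached at most 1.26 FPKM and 0.08 FPKM.

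The non-clustered protocadherins, whose genes lie elsewhere and carry their own cytoplasmic domains, gave no call. Of 12 listed genes 9 were in the table and 5 were tested, and 0 were higher or lower in limma, where 1.23% and 1.21% of all tested genes were. At an unadjusted p under 0.05 in limma 0 were higher and 2 lower, against 9.16% and 11.2%. *Pcdh9* was lower without overlap, at 1.83, 0.94 and 1.22 FPKM against 0.20, 0.46 and 0.69 FPKM (adjusted p = 0.166 in limma). *Pcdh19* was higher without overlap, at 0.66, 2.11 and 2.51 FPKM against 2.63, 5.46 and 3.21 FPKM (adjusted p = 0.264 in limma). *Pcdh7* was the most abundant, at 21.9, 46.7 and 44.1 FPKM against 31.8, 32.1 and 41.3 FPKM. Its groups overlapped, and its log2 fold change was -0.033 (adjusted p = 0.968 in limma).

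Genes for the architecture and silencing of protocadherin promoters were read from the same test. Of 11 genes of CTCF, cohesin and its loading, all tested, 0 passed in limma, where 1.23% of all tested genes rose and 1.21% fell. At an unadjusted p under 0.05 in limma 0 were higher and 1 lower, against 9.16% and 11.2%. Their median log2 fold change was -0.083, against -0.018 over all tested genes. Without a test, 0 of the 11 had all knockout libraries above all controls and 3 had them below, against 10.9% and 12.0% of all genes. These 3 were *Rad21*, *Smc1a* and *Smc3*. *Ctcf*, whose protein binds the alternate promoters and their enhancers, had 29.3, 22.2 and 21.8 FPKM against 30.5, 20.9 and 21.7 FPKM. These values followed the replicate number and not the genotype. *Smc3*, a core subunit of the cohesin ring, had 44.6, 31.1 and 33.3 FPKM against 27.6, 20.8 and 21.9 FPKM. Its groups did not overlap, and the log2 fold change of -0.60 had an adjusted p of 0.139 in limma and of 0.0283 with the replicate block. *Rad21*, the most abundant of the list and the cleavable subunit of the ring, had 89.2, 73.1 and 70.8 FPKM against 70.6, 55.1 and 54.1 FPKM (log2 fold change -0.37, adjusted p = 0.260 in limma, 0.0615 with the block). *Smc1a* had 54.9, 54.6 and 55.9 FPKM against 51.4, 41.9 and 43.5 FPKM (log2 fold change -0.27, adjusted p = 0.280 in limma, 0.152 with the block).

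Of 16 genes of DNA methylation and silencing, 15 were tested and 0 passed in limma with or without the block, with 2 higher and 2 lower at an unadjusted p under 0.05, near the 9.16% and 11.2% of all tested genes. Without a test, 3 of the 16 had all knockout libraries above all controls, namely *Dnmt3a*, *Tet2* and *Rest*, and 2 had them below, which is near the 10.9% and 12.0% of all genes. *Rest*, a repressor of neuronal genes, had 5.92, 6.22 and 6.80 FPKM against 7.50, 8.68 and 9.17 FPKM (log2 fold change 0.37, adjusted p = 0.213 in limma, 0.0968 with the block). *Dnmt3a*, a de novo methyltransferase gene, had 2.79, 2.92 and 3.59 FPKM against 3.86, 4.75 and 4.86 FPKM (log2 fold change 0.42, adjusted p = 0.221 in limma, 0.106 with the block). *Smchd1*, a chromatin protein that keeps protocadherin clusters silent in mice, had 23, 17.9 and 18.9 FPKM against 15.5, 13.3 and 14.8 FPKM. The knockouts were all lower, but the log2 fold change of -0.43 had an adjusted p of 0.171 in limma, or 0.0595 with the block. *Uhrf1*, which guides maintenance methylation, had 18.0, 12.8 and 15.7 FPKM against 7.62, 10.6 and 6.01 FPKM (log2 fold change -0.88, adjusted p = 0.0997 in limma, 0.0694 with the block). The maintenance methyltransferase gene *Dnmt1* overlapped between the groups, at 25.4, 16.0 and 18.0 FPKM against 19.1, 17.6 and 13.5 FPKM. *Trim28*, the corepressor that was the most abundant of the list, had 98.2, 75.1 and 69.6 FPKM against 74.7, 53.7 and 54.9 FPKM, with an overlap through control replicate 3. Whether any of these levels bears on the protocadherins was not tested.

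Partners of the cytoplasmic domains and enzymes that shed or cut protocadherins formed the last list. Of its 18 genes 16 were tested, and in limma 0 rose and 1 fell, or 3 with the replicate block, where 1.21% of all tested genes fell and 5.72% with the block. The gene that fell was *Fyn*, a Src-family kinase, at 11.5, 8.72 and 9.27 FPKM against 4.04, 2.63 and 4.63 FPKM. Its groups were apart, with a log2 fold change of -1.20 (limma's adjusted p 0.0444, with a standard error of 0.211, and 0.0231 under the block). *Wasf1*, of the WAVE actin complex, missed the threshold without the block, at 10.1, 7.05 and 8.17 FPKM against 5.66, 3.08 and 3.39 FPKM (adjusted p = 0.0980 in limma, 0.0258 with the block, 0.00142 in replicates 2 and 3 alone). *Psen2*, a catalytic subunit of gamma-secretase, did likewise, at 32.3, 29.3 and 26.4 FPKM against 22.6, 9.75 and 11.2 FPKM (adjusted p = 0.125 in limma, 0.0433 with the block, 0.000238 in replicates 2 and 3 alone). In replicates 2 and 3 alone 17.3% of all tested genes were called lower. *Nckap1*, also of the WAVE complex and the most abundant of the list, had 107, 86.6 and 84.6 FPKM against 119, 94.6 and 96.1 FPKM, with overlapping groups.

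Because clustered protocadherins are best known from neurons, markers of nerve cells and of other cells in the aortic wall were read beside them. Of 8 neuron markers 6 were in the table, and their sum was 36.5, 43.6 and 39.1 FPKM in the controls and 38.4, 21.6 and 29.1 FPKM in the knockouts. The most abundant was *Tubb3*, a tubulin, whose groups overlapped, with *Map2* next at 15.1 FPKM in control replicate 1. Other neuron markers were low, as *Elavl3* had at most 0.07 FPKM, *Elavl4* was listed at 0 outside control replicate 1, and *Syt1* had at most 0.66 FPKM. *Stmn2* had 0.03, 0.60 and 0.67 FPKM in the controls and was listed at 0 in all knockouts. Of the 2 tested, *Map2* fell (log2 fold change -2.16, adjusted p = 0.0460 in limma) and 0 rose. Of 3 Schwann or glial markers tested, 1 rose and 0 fell, namely *Mbp*, the most abundant, at 0.77, 1.84 and 1.76 FPKM against 5.89, 14.4 and 13.1 FPKM (log2 fold change 2.25, adjusted p = 0.0347 in limma). *S100b* had 0.34, 1.38 and 1.02 FPKM against 0.98, 12.7 and 7.40 FPKM, with an overlap through knockout replicate 1. Its log2 fold change of 1.71 did not pass (adjusted p = 0.236 in limma, 0.0596 with the block), while replicates 2 and 3 alone gave 0.000851. In that last setting 12.1% of all tested genes were called higher. The defining glial regulator *Sox10* was listed at 0 in 5 of the 6 libraries and had 0.02 FPKM in the other, and *Gfap* had at most 0.02 FPKM. The part of these nerve and glial markers in the protocadherin values was not tested.

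The other marker lists moved in different ways, and over all tested genes 1.23% rose and 1.21% fell in limma. The smooth muscle list summed to 922, 822 and 814 FPKM in the controls and 263, 429 and 377 FPKM in the knockouts, and of 5 tested genes *Acta2* alone fell and 0 rose in limma. The 7 fibroblast or adventitial markers summed to 301, 918 and 784 FPKM against 81.1, 571 and 516 FPKM, with replicate 1 the lowest library of each genotype, as it also was for *Dcn* (decorin), the most abundant on average. Of these 7, *Dpt* (dermatopontin) fell, from 144, 90.3 and 65.5 FPKM to 3.31, 1.15 and 0.63 FPKM. With the block 3 fell and 0 rose, where 5.72% and 4.72% of all tested genes did. At an unadjusted p under 0.05 in limma without the block 3 were lower and 0 higher, where 11.2% and 9.16% of all tested genes were. *Lum* went the other way with an overlap, at 0, 1.31 and 1.17 FPKM against 0.26, 14.5 and 10.4 FPKM. Its log2 fold change was 1.82 (adjusted p = 0.342 in limma, 6.7e-05 in replicates 2 and 3 alone). In replicates 2 and 3 alone 12.1% of all tested genes were called higher and 17.3% lower, which holds for *Kdr* below too. The mean of *Dcn* was 194 FPKM against 253 FPKM, with overlapping groups. Pericyte markers summed to 5.02, 10.1 and 9.54 FPKM against 5.78, 12.5 and 6.17 FPKM. By the mean over all libraries their most abundant gene was *Rgs5*, though *Notch3* exceeded it in knockout replicates 1 and 3. *Abcc9* had at most 0.03 FPKM, and of 3 tested *Notch3* rose (adjusted p = 0.0489 in limma). *Cspg4* was higher without overlap but did not pass (adjusted p = 0.127 in limma). *Rgs5* went the other way with an overlap, at 3.28, 8.05 and 7.27 FPKM against 0.71, 5.85 and 0.85 FPKM (log2 fold change -1.30, adjusted p = 0.281 in limma). The 8 endothelial markers summed to at most 5.41 FPKM in a library, with *Kdr* the most abundant in the knockouts and *Cdh5* and *Tie1* at most 0.01 FPKM. *Pecam1*, which exceeded *Kdr* in the controls, had 0.56, 0.88 and 0.92 FPKM against 0.12 FPKM, 0.18 FPKM and 0, below the filter and without overlap. *Kdr* went the other way, at 0.47, 0.58 and 0.84 FPKM against 0.96, 5.15 and 2.96 FPKM, also without overlap. Its log2 fold change was 1.16 (adjusted p = 0.186 in limma, 0.00263 in replicates 2 and 3 alone). Of the 6 macrophage or leukocyte markers *Cd14* was the most abundant, and *Ptprc* and *Adgre1* had at most 0.02 FPKM. In the endothelial and macrophage lists 0 of 1 and 0 of 4 tested genes passed in limma. At an unadjusted p under 0.05 in limma 1 (*Kdr*) and 1 (*Csf1r*) were higher and 0 lower, where 9.16% and 11.2% of all tested genes were. Their part in the protocadherin values was not tested.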

How the data were processed

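Per the labels and the study's methods, poly-A RNA was sequenced as paired reads on the BGISEQ-500, and the authors used SOAPnuke to filter reads, HISAT and Bowtie2 to map them and RSEM for expression, and they deposited FPKM rounded to 2 decimals for 18112 genes. Versions and genome build are not given in the sources used here. Values were put on a log2 scale after adding a pseudocount of 1, which understates the change of low genes. The filter kept 12565 genes whose mean over the 6 libraries reached 0.5 FPKM, and R 4.3.3 with limma 3.58.1 (lmFit, then eBayes, trend and robust on) compared the groups, with Benjamini-Hochberg adjustment over all of them and genes called at an adjusted p under 0.05. The fits were tested on simulated data. The planned design also held a count test, which FPKM cannot use. An exact permutation test of 3 against 3 cannot go below p = 0.1 (two-sided) and was not run. Deviations from group means across genes correlated at 0.61, 0.46 and 0.53 between same-numbered libraries 1, 2 and 3, but also at 0.46 and 0.44 between numbers 2 and 3, so the values set replicate 1 apart. Deviations within a group cancel out, so replicate 1 weighs on all of these correlations. They cannot decide whether 2 pairs with 2 or 3 with 3. A fit with the replicate number, taken from the labels, as a replicate block was an alternative. Other alternatives were a pseudocount of 0.1, no filter, a mean of 0.1 FPKM, TPM, leaving out each library, the methods' cutoffs and, added later, replicates 2 and 3 alone. Positions and lengths are those of GENCODE M21 (GRCm38), matched for all 53 members by the RefSeq transcripts listed with each gene. Genes are named if called, among the 3 highest of a cluster, of the largest rise or fall in a cluster, or C-type, with the called and most abundant genes of the related lists and the cell markers. Others were named after their values were seen. Members and lists were chosen with earlier results of these data known. Tables and figures were made in Python 3.11.15 (numpy 2.4.6, pandas 2.3.3, matplotlib 3.10.9, scipy 1.17.1).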

Additional observations from a re-analysis of the deposited data

How the results depend on the processing

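Of 168 alternative values of the 14 tested members that the rule names, 148 kept their direction and their side of the threshold, 12 kept their direction but were no longer called, 3 became called and 5 changed sign, all 5 in *Pcdhgc5*, whose log2 fold change became 0.11 with TPM, 0.13, 0.15 and 0.41 without Smyd2 fl/fl replicate 2, Smyd2 fl/fl replicate 3 and Smyd2 SMC-/- replicate 1, and 0.12 in replicates 2 and 3 alone, against -0.30 to 0.41 with each library left out. The count of all changed genes, 306, was 1312 with the replicate block, 53 at the cutoffs of the methods, 3667 in replicates 2 and 3 alone, and from 34 to 682 with each library left out. The 7 changed members became 8 with the replicate block, 5 (4 higher, 1 lower) at the methods' cutoffs and 13 (11 higher, 2 lower) in replicates 2 and 3 alone, and with each library left out they ranged from 3 to 10, of which 2 to 9 were higher. With the filter the block changed no other call of a named member, but the block without a filter did not call *Pcdhb14* (adjusted p = 0.0599 in limma) or *Pcdhb18* (0.0721). The summed gamma level differed by 12.2 FPKM, by 35.8 FPKM with all libraries rescaled to the mean total, by -20.7 to 29.8 FPKM with each library left out and by -3.90 FPKM in replicates 2 and 3 alone. The effective number of beta members differed by 0.362, and by -0.141 to 0.649 with each library left out. The cause of these shifts was not tested. Values near 0.01 FPKM rest on about 1 fragment, and the division of constant-exon reads could not be examined without reads.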
